A study of Mus musculus with 120 samples.

Results

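The climbing fibre and corticotropin-releasing hormone (CRH) system was followed through 7 genes, Crh, C1ql1, Htr5b, Crhr1, Crhr2, Adgrb3 and Crhbp, chosen as transcripts of the inferior olive or their receptors and matched by symbol in the deposited gene counts, 7 of 55573 genes. The study sequenced brain RNA of C57BL/6J mice of 3 genotypes at 10 and 26 weeks of age, 4 mice per genotype and age and 24 mice in all. WT mice carried normal Atxn1. 175Q mice carried one knock-in Atxn1 allele with a long glutamine-coding repeat beside a normal 2Q allele (Atxn1 175Q/2Q), a model of spinocerebellar ataxia type 1. 175QK772T mice carried the same expansion with a lysine-to-threonine change, K772T, that lies in the signal for nuclear import, again beside a normal 2Q allele (Atxn1 175QK772T/2Q). Both mutants were therefore heterozygous knock-ins expressed from the endogenous locus in every cell type that uses it. Each mouse gave 5 regions, cerebellum, cortex, hippocampus and striatum at both ages, with brainstem at 10 weeks and medulla at 26 weeks, 120 libraries in all. Brainstem and medulla are different dissections, and the ages were prepared and sequenced separately, so a difference between them cannot be told apart from age, dissection or batch. Females and males were equal in number in each genotype and age except 175QK772T at 10 weeks, which had more females. The tests carry a term for sex.

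The inferior olive of the medulla sends its axons to the cerebellum as climbing fibres, each of which wraps the dendrites of a Purkinje cell, the output neuron of the cerebellar cortex. Olivary neurons make CRH, a peptide first known from the hypothalamic stress response that acts in the cerebellum on CRH receptors of Purkinje cells. They also make C1QL1, a secreted C1q-like protein that binds the adhesion receptor ADGRB3 (BAI3) on Purkinje cells and is needed to form and keep climbing fibre synapses. No library was made from the olive alone. Transcripts chosen for the olive, where the cell bodies lie, are called climbing fibre transcripts and are read from bulk brainstem or medulla. Those of the receptors are read from the cerebellum. Which cells of the brainstem or medulla made each transcript was not tested.

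Of the transcripts chosen for the olive, Crh encodes the peptide (ENSMUSG00000049796, chr3:19693401-19695396, minus strand, GRCm38). C1ql1 encodes the C1q-like ligand (ENSMUSG00000045532, chr11:102939264-102946688, minus strand). Htr5b encodes a serotonin receptor enriched in the olive (ENSMUSG00000050534, chr1:121509842-121528465, minus strand). Among the receptors, Crhr1 encodes the CRH receptor that prefers CRH (ENSMUSG00000018634, chr11:104132855-104175523, plus strand), and Crhr2 the CRH receptor that prefers urocortins (ENSMUSG00000003476, chr6:55090049-55133016, minus strand). Adgrb3 encodes the C1QL1 receptor (ENSMUSG00000033569, chr1:25067476-25829707, minus strand). Crhbp encodes the CRH binding protein, which holds CRH outside the cell and limits its action (ENSMUSG00000021680, chr13:95431371-95444924, minus strand). All counts cover the exons of each gene.

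The promoters of 3 members that differed between genotypes in several regions are shown with the known DNA motifs of capicua, a repressor that binds ATXN1, and of the cAMP response, which CRH receptors drive. Each is the 250 bases before the RefSeq start (GRCm38.p6), read 5′ to 3′ on the gene's strand, for Crhr1 at chr11:104132531-104132780, plus strand, Crhbp at chr13:95444832-95445081, minus strand, and Adgrb3 at chr1:25829708-25829957, minus strand. RefSeq promoters were matched by symbol for 4 of the 7 members, the fourth being Crhr2. Capitals mark a motif match.
Crhr1: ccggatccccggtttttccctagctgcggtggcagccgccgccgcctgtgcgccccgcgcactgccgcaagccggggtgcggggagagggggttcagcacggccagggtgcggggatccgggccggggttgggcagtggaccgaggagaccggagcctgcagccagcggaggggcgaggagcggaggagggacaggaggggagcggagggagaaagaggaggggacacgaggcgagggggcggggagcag
Crhbp: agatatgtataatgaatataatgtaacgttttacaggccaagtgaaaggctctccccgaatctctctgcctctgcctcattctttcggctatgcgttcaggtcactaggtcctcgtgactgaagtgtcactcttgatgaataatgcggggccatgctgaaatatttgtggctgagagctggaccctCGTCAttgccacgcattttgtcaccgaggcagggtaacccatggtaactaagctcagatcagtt
Adgrb3: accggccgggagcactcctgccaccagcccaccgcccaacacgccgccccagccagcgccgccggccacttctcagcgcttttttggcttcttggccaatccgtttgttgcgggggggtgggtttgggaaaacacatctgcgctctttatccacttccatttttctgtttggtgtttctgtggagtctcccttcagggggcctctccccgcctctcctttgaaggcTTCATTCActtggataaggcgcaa

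Both strands were searched for the capicua octamers TGAATGGA and TGAATGAA, the cAMP response element TGACGTCA and its shorter site TGACG, which overlaps it, and the TATA box TATAAA. Crhbp held TGACG on the opposite strand, 64 to 60 bases before the start, a match found in 17.8% of 32851 promoters of the same length. This site lies inside the Crhbp gene span given above, which begins before the RefSeq start. Adgrb3 held TGAATGAA on the opposite strand, 24 to 17 bases before the start, a match found in 1.08% of promoters. Either capicua octamer was found in 2.07% of promoters. Crhr1 held none of these letters, and Crhr2 held only TATAAA, found in 12.4% of promoters.

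Totals per library, in units of 1000000 counted read pairs, were 68.2 to 104 at 10 weeks and 28 to 57.3 at 26 weeks. Values are CPM, counts divided by the library total in those units after TMM scaling within a region and age, and changes are log2 fold changes ± SE from edgeR's quasi-likelihood test with p-values adjusted over all genes tested in a region and age (Benjamini-Hochberg, threshold 0.05). Atxn1 was higher in every mutant library than in every WT library in brainstem (WT 34 to 34.6 CPM, 175Q 41.4 to 44.1, 175QK772T 42.3 to 45.5) and in medulla (40.3 to 45.4, 51.1 to 60.9 and 48.3 to 56.4), and the groups overlapped in cerebellum at 26 weeks. In cerebellum at 10 weeks none of the groups overlapped, at 46.8 to 50.4 CPM in WT, 51.5 to 56.8 in 175Q and 60.3 to 63.6 in 175QK772T. A gene level does not tell the 175Q from the 175QK772T allele. One library went against its label: the cortex of WT replicate 1 at 26 weeks held Slc6a5, a hindbrain glycine transporter, at 407 CPM against 0.0218 to 0.265 in the other WT libraries. Cortex results at 26 weeks are therefore given with and without it. In cerebellum at 26 weeks, 175Q replicate 4 and 175QK772T replicate 2 carried 13.5% and 11.5% mitochondrial counts against 3.89% to 5.01% in the other libraries.

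In WT mice the 7 genes differed in where they were highest, given here as CPM per kilobase of exon on unscaled library totals, which lets genes be compared. Crh was highest in the hindbrain samples, at a median of 7.38 CPM per kilobase in brainstem and 11.4 in medulla, followed by cortex at 4.90 and 3.76. The brainstem and cortex ranges did not overlap at 10 weeks, and those of medulla and cortex met only through the cortex of WT replicate 1. Crh in cerebellum was near the lower limit of these libraries, at 0.142 and 0.0848. C1ql1 followed the same order at the top, with 14.8 in brainstem and 20.8 in medulla against 5.21 and 4.56 in hippocampus, the next region, and no overlap at either age. Htr5b was as high in hippocampus (3.02) as in brainstem (2.14), where ranges overlapped, but in medulla it reached 6.83 against 2.68 in hippocampus with no overlap.

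**Figure D1:**
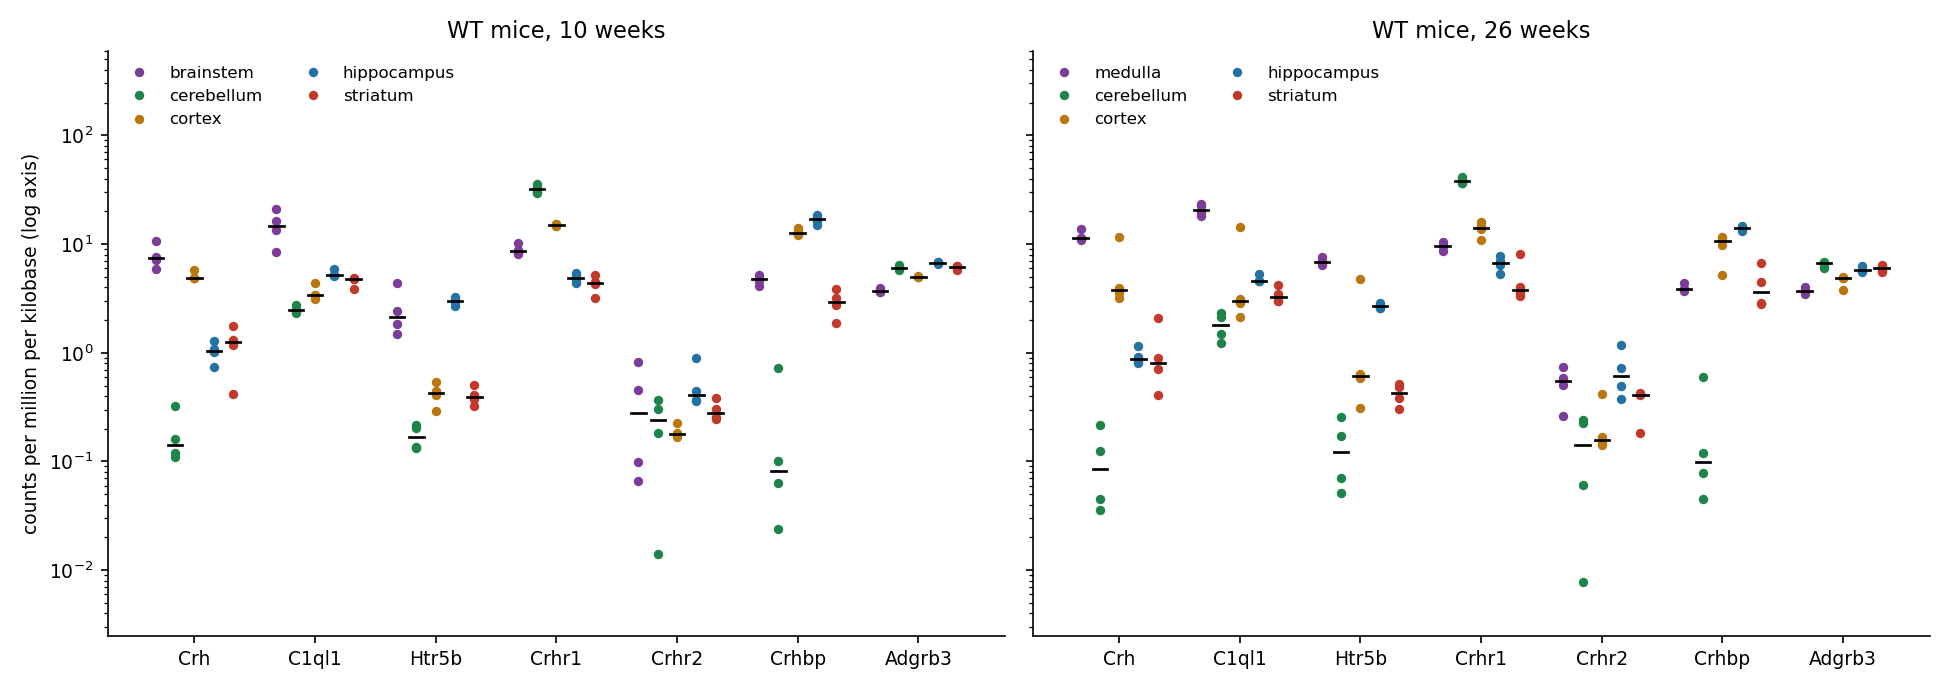
WT levels of the 7 genes in each region at 10 and 26 weeks, in CPM per kilobase of exon on a log axis, with 1 point per library (4 per region and age) and bars at the medians. Crh and C1ql1 have their highest medians in brainstem and medulla, Crhr1 in cerebellum and Crhbp in hippocampus.

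The receptors were placed elsewhere. Crhr1 was highest in cerebellum, at 32 and 38.2 CPM per kilobase, then in cortex at 15 and 14.1, and lowest in hippocampus and striatum, which overlapped each other at both ages. Adgrb3 varied least, between medians of 3.67 and 6.70, with its lowest levels in brainstem and medulla. Crhr2 stayed between medians of 0.143 and 0.614, and no neighbouring regions differed beyond their spread at either age. Crhbp was highest in hippocampus (16.8 and 14.2) and then cortex (12.7 and 10.6) and was nearly without counts in cerebellum (0.0821 and 0.0985).

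In brainstem at 10 weeks, Crh was the only member called in either mutant. It stood at 10.2, 7.83, 9.41 and 14.3 CPM in WT, at 4.26, 4.18, 3.94 and 3.47 in 175Q and at 4.15, 5.16, 3.93 and 4.64 in 175QK772T. Every mutant library lay below every WT library, and the mutants overlapped each other. Crh therefore kept 38% of its WT mean in 175Q (-1.39 ± 0.16, edgeR adjusted p = 0.000534) and 42.9% in 175QK772T (-1.22 ± 0.16, edgeR adjusted p = 0.0177). Without 175QK772T replicate 1, 3 or 4 or WT replicate 1, the 175QK772T call was lost, with an adjusted p of up to 0.083. The mutants differed by 0.18 ± 0.16 (interval of 2 SE -0.15 to 0.50, edgeR adjusted p = 0.897). These are bulk tissue values, in which fewer cells of a type and less RNA per cell cannot be told apart. The share of all genes called was 2.93% for 175Q against WT, 0.0331% for 175QK772T against WT and 0.0568% between the mutants, beside 1, 1 and 0 of the 7 members. Between the mutants 0 members were below an unadjusted p of 0.05 or called by DESeq2.

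The other climbing fibre transcripts varied widely within each genotype in brainstem. C1ql1 stood at 24.1, 12.7, 19.7 and 31.4 CPM in WT, 14, 25.4, 25.4 and 22.9 in 175Q and 13.3, 27.4, 16.2 and 22.3 in 175QK772T. Htr5b stood at 3.60, 2.92, 4.74 and 8.58 in WT, 1.40, 3.88, 4.17 and 4.04 in 175Q and 1.20, 7.51, 2.48 and 3.46 in 175QK772T. The groups overlapped throughout, and the highest WT library was the same for both genes, as was the lowest library of each mutant. C1ql1 differed from WT by -0.01 ± 0.26 in 175Q (interval -0.54 to 0.52) and Htr5b by -0.56 ± 0.47 (interval -1.51 to 0.38), so that a fall of the size seen for Crh lies within the Htr5b interval but outside that of C1ql1. Pou4f1, a transcription factor of olivary neurons, was high and low in the same libraries: 7.79, 6.53, 9.68 and 15.3 in WT, 5.32, 12.2, 12.1 and 12.1 in 175Q and 5.51, 12.8, 7.09 and 9.34 in 175QK772T. With genotype means removed, C1ql1 and Htr5b correlated at r = 0.895 and Crh and C1ql1 at r = 0.683 over the 12 libraries, which share a dissection and a sequencing run. The part of the amount of olive in each dissection in these values was not tested.

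**Figure D2:**
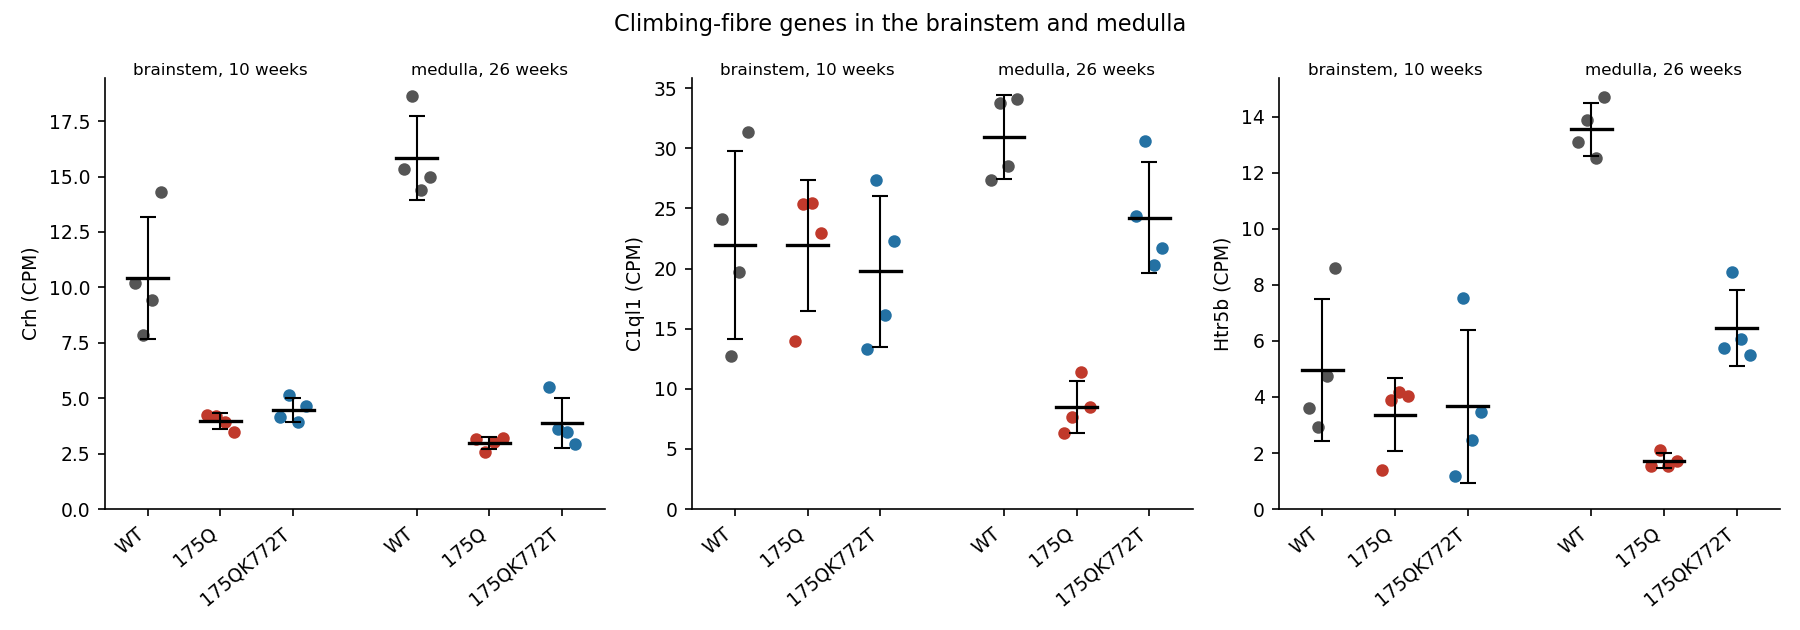
Crh, C1ql1 and Htr5b in CPM in brainstem at 10 weeks and medulla at 26 weeks, with 1 point per library (4 per genotype), a line at the mean and bars of 1 SD. In medulla the 175Q libraries lie below every WT library for all 3 genes, and the 175QK772T libraries overlap 175Q for Crh but not for C1ql1 or Htr5b.

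Receptors and the binding protein were not called in brainstem. Crhr1 lay between 18.2 and 25.6 CPM in all 12 libraries (-0.18 ± 0.08 in 175Q, edgeR adjusted p = 0.254). Adgrb3 lay between 67.5 and 76.7. Crhbp stood at 7.48 to 9.40 in WT and 6.65 to 7.53 in 175Q (-0.27 ± 0.13, edgeR adjusted p = 0.298). Crhr2 ranged from 0.345 to 4.25 CPM among WT libraries alone, and over the 12 libraries it correlated at r = 0.961 with Ttr, the transthyretin of choroid plexus, whose WT libraries stood at 36.8, 61.6, 4820 and 2119 CPM. Crhr2 differed from WT by -1.45 ± 0.74 in 175Q (edgeR adjusted p = 0.329), and how far choroid tissue in the dissection set its level was not tested. The median change of the 7 members in brainstem was -0.27 in 175Q and -0.12 in 175QK772T, beside 0.00227 over all genes in 175Q.

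Of 10 further genes of olivary neurons, 0 passed the edgeR test in brainstem in 175Q or in 175QK772T, and in 175Q their median change was -0.05. At an unadjusted p of 0.05 there were 4 and 1, and DESeq2 called 3 and 0, the 3 being Chrna7, Kcnj6 and Nefm. Of 16 tested genes of the CRH family and cAMP signalling, 1 rose in 175Q, the immediate early gene Nr4a1 (0.62 ± 0.15). Of 14 genes for C1q-like ligands and their receptor families, 2 fell, C1ql3 (-0.33 ± 0.08), a paralogue of C1ql1, and the presynaptic receptor Nrxn3 (-0.17 ± 0.04). Of 11 serotonin receptor genes, 3 fell, Htr1a (-0.35 ± 0.09), Htr1b (-0.31 ± 0.06) and Htr1d (-0.48 ± 0.12). Of 6 genes of noradrenergic neurons, another hindbrain cell type, 5 fell in 175Q, where 2.93% of all genes were called. Among them was the noradrenaline transporter Slc6a2 (-2.99 ± 0.38). This was one of several lists of cell type markers, and the brainstem counts of the others are not reported here.

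In medulla at 26 weeks all 3 climbing fibre transcripts fell in 175Q, and they differed in how low they were in 175QK772T. Crh stood at 15.3, 18.6, 14.4 and 15 CPM in WT, 3.16, 2.57, 3.02 and 3.19 in 175Q and 5.53, 3.62, 3.49 and 2.92 in 175QK772T. All mutant libraries lay far below WT, and the mutants overlapped. Crh kept 18.9% of its WT mean in 175Q (edgeR adjusted p = 1.93e-07) and 24.6% in 175QK772T (edgeR adjusted p = 8.23e-06). The difference between the mutants was 0.37 ± 0.16 (interval 0.04 to 0.69, edgeR adjusted p = 0.17).

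C1ql1 behaved differently in 175QK772T. It stood at 27.3, 33.7, 28.5 and 34.1 CPM in WT, 6.33, 7.69, 11.4 and 8.53 in 175Q and 24.4, 30.6, 20.3 and 21.7 in 175QK772T. The 175Q libraries lay below all others, whereas 175QK772T overlapped WT. C1ql1 kept 27.5% of its WT mean in 175Q (edgeR adjusted p = 1.49e-06) and 78.4% in 175QK772T (-0.37 ± 0.14, interval -0.65 to -0.08, edgeR adjusted p = 0.211). It was higher in 175QK772T than in 175Q by 1.51 ± 0.15 (edgeR adjusted p = 0.000146).

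Htr5b fell in both mutants and by a smaller amount in 175QK772T. It stood at 13.1, 13.9, 12.5 and 14.7 CPM in WT, 1.54, 2.1, 1.54 and 1.73 in 175Q and 5.74, 8.44, 6.08 and 5.51 in 175QK772T. None of the 3 groups overlapped. Htr5b kept 12.7% of its WT mean in 175Q and 47.6% in 175QK772T (-1.07 ± 0.13, edgeR adjusted p = 0.00068), and the mutants differed at an edgeR adjusted p of 4.31e-05. Thus 3 climbing fibre transcripts that all fell in 175Q kept 24.6% (Crh), 47.6% (Htr5b) and 78.4% (C1ql1) of WT in 175QK772T.

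Of the other members in medulla, Crhr1 and Adgrb3 passed the test in 175Q. Crhr1 stood at 26.4, 24.3, 21.4 and 23.7 CPM in WT, 18.7, 18.4, 20.6 and 19.9 in 175Q and 23.5, 19.7, 20.8 and 19.6 in 175QK772T. The 175Q libraries lay below WT without overlap, and Crhr1 fell by 0.31 ± 0.07 on the log2 scale (edgeR adjusted p = 0.0106), while 175QK772T differed by -0.20 ± 0.07 (edgeR adjusted p = 0.202). Adgrb3 stood at 65.8 to 75.4 in WT and 75.8 to 78.9 in 175Q, a rise of 0.15 ± 0.05 (edgeR adjusted p = 0.043) that was lost without any one of 175Q replicates 1, 3 and 4 or WT replicates 1, 2 and 3, with an adjusted p of up to 0.13. With the replicate number as a block the adjusted p of Adgrb3 was 0.0644. Crhbp (-0.05 ± 0.19) and Crhr2 (-1.11 ± 0.54, edgeR adjusted p = 0.172) were not called in 175Q, and Crhr2 correlated at r = 0.878 with Ttr over the 12 medulla libraries. In all, 5 of 7 members were called in 175Q, where 18.5% of all genes were, 2 of 7 in 175QK772T (2.08% of genes) and 2 of 7 between the mutants (9.46%), both higher in 175QK772T. The median change of the members in medulla was -1.11 in 175Q and -0.37 in 175QK772T, beside -0.00054 over all genes in 175Q.

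Among the 10 further genes of olivary neurons, 7 fell in 175Q medulla (median -0.34) and 0 were called in 175QK772T (median -0.18), while 3 were higher in 175QK772T than in 175Q. In 175QK772T 6 of the 10 were below an unadjusted p of 0.05, and DESeq2 called 1, Pou4f1. Ano2, a calcium-activated chloride channel, stood at 11.3, 8.91, 7.85 and 10.8 CPM in WT, 1.70, 2.52, 2.41 and 3.16 in 175Q and 5.65, 11, 5.54 and 6.62 in 175QK772T. Pou4f1 stood at 20.7, 20.7, 18.3 and 19.5, at 7.32, 7.12, 7.33 and 7.49, and at 12.9, 19.7, 13.3 and 15.3 in the same order. The transcription factor Foxp2 stood at 14, 15.3, 12.5 and 15.8, at 8.38, 8.84, 9 and 9.13, and at 12, 19.6, 13.2 and 15.1. For Pou4f1 and Foxp2 the 175Q libraries lay below both other groups, and 175QK772T overlapped WT. Pou4f1 fell by 1.44 ± 0.11 on the log2 scale in 175Q and Foxp2 by 0.70 ± 0.13. Smaller falls passed the test for the T-type calcium channel Cacna1g (-0.38 ± 0.09), the gap junction gene Gjd2 (-0.29 ± 0.07), the potassium channel Kcnj6 (-0.40 ± 0.13) and the neurofilament Nefm (-0.26 ± 0.07). The glutamate transporter Slc17a6, shared by most excitatory hindbrain neurons, lay between 256 and 291 CPM in all 12 libraries. The olive list summed to 1493 to 1553 CPM in WT, 1240 to 1357 in 175Q and 1360 to 1554 in 175QK772T.

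Partner genes of the members were called in medulla as follows. Of 14 tested genes of the CRH family and cAMP signalling, 1 rose in 175Q, the phosphodiesterase Pde4d (0.31 ± 0.06), and 2 fell, the stimulatory G protein gene Gnas (-0.28 ± 0.06) and the adenylyl cyclase Adcy5 (-0.16 ± 0.05), and 0 were called in 175QK772T by edgeR, at an unadjusted p of 0.05 or by DESeq2. Of 13 genes for C1q-like ligands and their receptor families, 4 fell and 1 rose in 175Q. The largest falls among these were of the ligands C1ql2 (-1.01 ± 0.16) and Cbln1 (-0.73 ± 0.09), and the receptor gene Grid1 rose (0.19 ± 0.05). In 175QK772T, Cbln1 (-0.40 ± 0.09) and Nrxn3 (-0.20 ± 0.04) fell. Of 11 serotonin receptor genes beyond Htr5b, 5 fell in 175Q and 3 in 175QK772T, led in 175Q by Htr1b (-1.02 ± 0.10) and Htr1a (-0.79 ± 0.06), both higher in 175QK772T than in 175Q (0.49 ± 0.10 and 0.41 ± 0.06).

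Some markers of other medullary cells were called as well, in a region where 18.5% of all genes were called in 175Q and 2.08% in 175QK772T. The medulla counts of marker lists not named below are not reported here. Astrocyte markers summed to 4244 to 4515 CPM in WT, 2498 to 2903 in 175Q and 3264 to 3579 in 175QK772T, with 6 of 8 lower in 175Q. Oligodendrocyte markers summed to 17977 to 18589, 12509 to 15386 and 15881 to 17180 CPM, with 4 of 8 lower in 175Q, and pan-neuronal genes to 7999 to 8473, 7390 to 7773 and 7460 to 8376, with 3 of 8 lower. Of 6 motor neuron markers 0 were called, and of 4 glycinergic markers 0, with edgeR or with DESeq2, and 1 of each was below an unadjusted p of 0.05. Caudal Hox genes summed to 32.4 to 59.9 CPM in WT, 53 to 69.8 in 175Q and 64.2 to 89.4 in 175QK772T, with 4 of 6 tested higher in each mutant, Hoxb9 from 0.103 to 0.405 CPM in WT to 4.29 to 7.01 and 3.22 to 7.88. Hoxc9 and Hoxc10 were at 0 in all medulla libraries. In cortex at 26 weeks Hoxb9 was also higher, at 0 to 0.0407 CPM in WT, 4.85 to 5.96 in 175Q and 1.57 to 3.35 in 175QK772T, and Hoxa7 stood at 0.0204 to 1.82, 5.58 to 6.56 and 1.67 to 2.68, its highest WT library overlapping 175QK772T. The part of the dissection and of cell composition in the medulla results was not tested.

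Genes whose levels ran most like each climbing fibre transcript over the 12 medulla libraries were named by Pearson's r of log2 CPM, among those averaging 1 CPM or more. These libraries share their genotypes, so any gene that follows genotype scores high. Htr5b was followed by Kcng1 (r = 0.99), Pou4f1 (0.98) and Kit (0.98). In brainstem Kcng1 and Pou4f1 kept an r of 0.88 and 0.90 with Htr5b, and Kit one of 0.51. C1ql1 was followed by Kcnk13, Emp2, Lcat and Gpr37l1 (r = 0.98, 0.98, 0.97 and 0.97), whose r with C1ql1 in brainstem was 0.27, 0.22, 0.18 and 0.09. Crh was followed by F3, Bhlhe40, Gpr139 and Fbxw7, each at r = 0.97, and at 0.56, 0.79, 0.69 and 0.87 in brainstem. With genotype means removed, the medulla r with C1ql1 was 0.79, 0.78, 0.77 and 0.70 for Kcnk13, Emp2, Lcat and Gpr37l1. With Htr5b it was 0.44, 0.62 and 0.80 for Kcng1, Pou4f1 and Kit. With Crh it was 0.62, 0.45, 0.41 and 0.72 for F3, Bhlhe40, Gpr139 and Fbxw7. Between members in medulla, C1ql1 and Htr5b correlated at 0.948, Crh and Htr5b at 0.824 and Crh and C1ql1 at 0.710, falling to 0.369, -0.164 and 0.188 once genotype means were removed.

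In cerebellum, where climbing fibres end, Crhr1 was the only member called at either age, and it fell in both mutants. At 10 weeks Crhr1 stood at 72.1, 87.9, 84.3 and 74.9 CPM in WT, 44.7, 43.2, 41.7 and 49.2 in 175Q and 53.8, 56.3, 50.05 and 51.6 in 175QK772T. None of the 3 groups overlapped. Crhr1 kept 56% of its WT mean in 175Q (-0.84 ± 0.07, edgeR adjusted p = 1.02e-06) and 66.3% in 175QK772T (-0.59 ± 0.07, edgeR adjusted p = 0.000145). The mutants differed by 0.25 ± 0.07 (interval 0.11 to 0.39), which did not pass with edgeR (adjusted p = 0.119) and did with DESeq2 (adjusted p = 0.0117). The share of all genes called at 10 weeks was 11.4% in 175Q, 4.04% in 175QK772T and 1.19% between the mutants, beside 1, 1 and 0 of 7 members, and Crhr1 was the 1 member below an unadjusted p of 0.05 between the mutants.

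At 26 weeks Crhr1 stood at 87.5, 101, 87.7 and 95.5 CPM in WT, 44.6, 46.7, 51.7 and 57.1 in 175Q and 54.7, 58, 59.96 and 55.2 in 175QK772T. Both mutants lay below WT and overlapped each other. The levels were 53.9% of WT in 175Q (-0.89 ± 0.10, edgeR adjusted p = 0.000564) and 61.4% in 175QK772T (-0.70 ± 0.09, edgeR adjusted p = 0.00949), and the mutants differed by 0.19 ± 0.09 (edgeR adjusted p = 0.52). The 175QK772T call was lost without 175QK772T replicate 4 or WT replicate 2, with an adjusted p of up to 0.06. Without both libraries of high mitochondrial share the changes were -0.96 ± 0.07 (edgeR adjusted p = 1.41e-05) and -0.71 ± 0.07 (edgeR adjusted p = 0.00043). The share of all genes called at 26 weeks was 3.01%, 0.298% and 0.0992%, beside 1, 1 and 0 of the 4 members that passed the filter on low counts. Between the mutants DESeq2 called 0 as well, and 1, Adgrb3, was below an unadjusted p of 0.05.

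**Figure D3:**
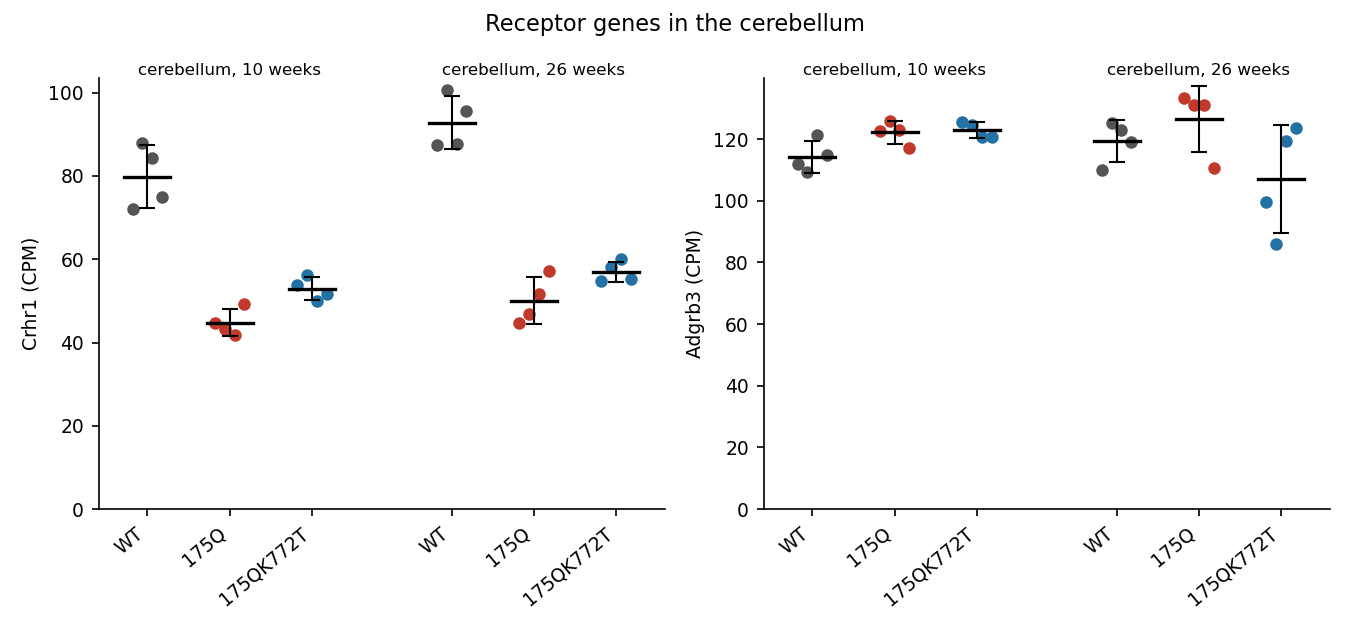
Crhr1 and Adgrb3, the receptors for CRH and C1QL1, in CPM in cerebellum at 10 and 26 weeks, with 1 point per library (4 per genotype), a line at the mean and bars of 1 SD. Crhr1 lies below WT in every mutant library at both ages, while the Adgrb3 groups overlap.

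Adgrb3, the receptor on the Purkinje cell side of the C1QL1 pair, was not called in cerebellum. It stood at 112, 109, 121 and 115 CPM in WT and 123, 126, 123 and 117 in 175Q at 10 weeks (0.10 ± 0.03, edgeR adjusted p = 0.087), and at 110, 125, 123 and 119 against 133, 131, 131 and 111 at 26 weeks. The groups overlapped at both ages, and 175Q replicate 4, with its high mitochondrial share, was the lowest 175Q library at 26 weeks. Crhr2 lay between 0.0742 and 2.93 CPM at 10 weeks and correlated at r = 0.973 with Ttr over the 12 libraries. C1ql1 lay between 3.14 and 4.15 CPM at 10 weeks with no call. Crh had 1 to 34 counts per library at 10 weeks, and Crh, Crhbp and Htr5b did not pass the filter on low counts at 26 weeks, so their change within cerebellum was not tested there.

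The other cerebellar genes give the setting of the Crhr1 change. Of 10 Purkinje cell markers, 9 fell in 175Q at 10 weeks (median -0.60), 5 fell in 175QK772T, and 9 were higher in 175QK772T than in 175Q. They included Rgs8 (-0.86 ± 0.04 in 175Q) and the carbonic anhydrase-related gene Car8 (-0.58 ± 0.04). Purkinje markers summed to 5942 to 6444 CPM in WT, 4082 to 4323 in 175Q and 5229 to 5566 in 175QK772T at 10 weeks, and to 5106 to 6000, 3095 to 3441 and 3871 to 4827 at 26 weeks, when 6 fell in 175Q. In 175QK772T at 26 weeks edgeR called 0 of the 10, DESeq2 3, and 7 were below an unadjusted p of 0.05. The part of this in the level of Crhr1 was not tested. Of 16 genes of the climbing fibre to Purkinje cell synapse, 7 fell and 2 rose in 175Q at 10 weeks. Those that fell included Homer3 (-0.58 ± 0.06), the IP3 receptor Itpr1 (-0.35 ± 0.06) and the semaphorin Sema7a (-0.61 ± 0.04), and the AMPA receptor subunit Gria2 (0.20 ± 0.04) and Sema3a (0.37 ± 0.05) rose. At 26 weeks 2 of 15 fell in 175Q, Itpr1 (-0.76 ± 0.18) and the actin regulator Mtss1 (-0.40 ± 0.09). Of 15 genes of the CRH family and cAMP signalling, only the adenylyl cyclase Adcy1 fell in 175Q at 10 weeks (-0.45 ± 0.05), and 0 were called at 26 weeks with edgeR or DESeq2, with 3 below an unadjusted p of 0.05. Among the relatives of C1ql1 and its partners, Cbln1 (-0.56 ± 0.06) and Cbln3 (-0.37 ± 0.05) fell in 175Q at 10 weeks.

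Outside the hindbrain, Crh, Crhbp and Crhr1 fell in cortex in both mutants at 10 weeks and Adgrb3 rose. Crh stood at 7.95, 6.64, 6.59 and 6.75 CPM in WT, 2.77, 3.79, 2.71 and 3.10 in 175Q and 2.84, 2.84, 2.56 and 3.39 in 175QK772T. Both mutants lay below WT and overlapped each other, with falls of 1.17 ± 0.12 (edgeR adjusted p = 8.53e-07) and 1.27 ± 0.12 (edgeR adjusted p = 6.71e-07) on the log2 scale. Crhbp stood at 22.8, 26.3, 24.1 and 23.1 in WT, 12.3, 14.4, 14.4 and 11.9 in 175Q and 17.2, 16.4, 14.9 and 16.3 in 175QK772T. The 3 Crhbp groups did not overlap, and it fell by 0.86 ± 0.07 and 0.56 ± 0.07, while the mutants differed at an edgeR adjusted p of 0.0615. Crhr1 fell from 37.3 to 39 CPM in WT to 24.6 to 26.7 in 175Q and 26.4 to 28.9 in 175QK772T. Adgrb3 moved the other way, from 94.3 to 97.5 in WT to 120 to 134 in 175Q (0.40 ± 0.04) and 111 to 113 in 175QK772T (0.22 ± 0.04), and was lower in 175QK772T than in 175Q (-0.18 ± 0.04, edgeR adjusted p = 0.0259), a call lost in 6 of 8 fits that left out a library. C1ql1 fell in 175Q (-0.36 ± 0.11, edgeR adjusted p = 0.0111), a call lost without WT replicate 3. Of 7 members, 5 were called in 175Q cortex at 10 weeks (38.2% of all genes), 4 in 175QK772T (25.9%) and 1 between the mutants (1.05%).

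At 26 weeks the cortex of WT replicate 1 set the size of several changes. Crh stood at 15.4, 5.57, 4.95 and 4.42 CPM in WT, 0.986, 1.57, 2.17 and 1.57 in 175Q and 3.58, 3.46, 2.63 and 2.96 in 175QK772T. The mutants and WT did not overlap with or without replicate 1. With all libraries Crh changed by -2.21 ± 0.32 in 175Q and without replicate 1 by -1.72 ± 0.18 (edgeR adjusted p = 4.62e-07). Crhbp, at 9.46, 21.6, 22.2 and 18.4 in WT, 7.40, 6.88, 9.64 and 7.67 in 175Q and 11.2, 12.3, 11.5 and 12.4 in 175QK772T, changed by -1.18 with all libraries and by -1.42 ± 0.10 without replicate 1 in 175Q, and by -0.83 in 175QK772T without it (edgeR adjusted p = 3.87e-06). Htr5b changed by -2.43 in 175Q with all libraries and by -1.26 without replicate 1, and C1ql1 by -1.43 and by -0.64, since that library held 9.25 CPM of Htr5b and 21.2 of C1ql1 against at most 1.3 and 4.77 in the other WT libraries. With all libraries 6 of 7 members were called in 175Q (31.6% of all genes), 1 in 175QK772T (8.83%) and 0 between the mutants (3.46%), where DESeq2 called 2, Crh and Crhr1, and 3 were below an unadjusted p of 0.05. Without replicate 1, Crh, Crhr1, Crhbp and Htr5b fell and Adgrb3 rose in 175QK772T at edgeR adjusted p of 0.00513, 0.00192, 3.87e-06, 0.0332 and 0.00988. That fit called 5 of 7 members in 175QK772T beside 22.9% of all genes, and 6 of 7 in 175Q beside 44.8%. With all libraries the 175QK772T call, of Crh, was lost in 5 of 8 fits that left out a library, and in 175Q those of C1ql1 and Htr5b in 3 and 2 of 8 (adjusted p up to 0.117, 0.1 and 0.0883).

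Hippocampus is where Crhbp is highest, and its fall in 175Q was larger at 26 than at 10 weeks. At 10 weeks Crhbp stood at 34.4, 32.5, 29.7 and 27.6 CPM in WT, 17.3, 17.8, 18.4 and 19.5 in 175Q and 24.5, 19.7, 17.2 and 22.6 in 175QK772T. At 26 weeks it stood at 26.4, 24.2, 28.2 and 26.6, at 7.27, 5.35, 7.40 and 6.98, and at 14.7, 15.5, 14.3 and 15. Both mutants lay below WT at each age, and the mutants overlapped at 10 weeks and not at 26 weeks. In 175Q Crhbp changed by -0.77 ± 0.10 (edgeR adjusted p = 0.000171) and then by -1.96 ± 0.09 (edgeR adjusted p = 1.6e-09), and the change differed between the ages by -1.20 ± 0.14 (edgeR adjusted p = 1.4e-05). In 175QK772T it changed by -0.55 ± 0.10 and then by -0.83 ± 0.08, and was higher than in 175Q by 1.14 ± 0.09 at 26 weeks (edgeR adjusted p = 1.91e-05). Age differences carry the separate batches of the ages within them.

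**Figure D4:**
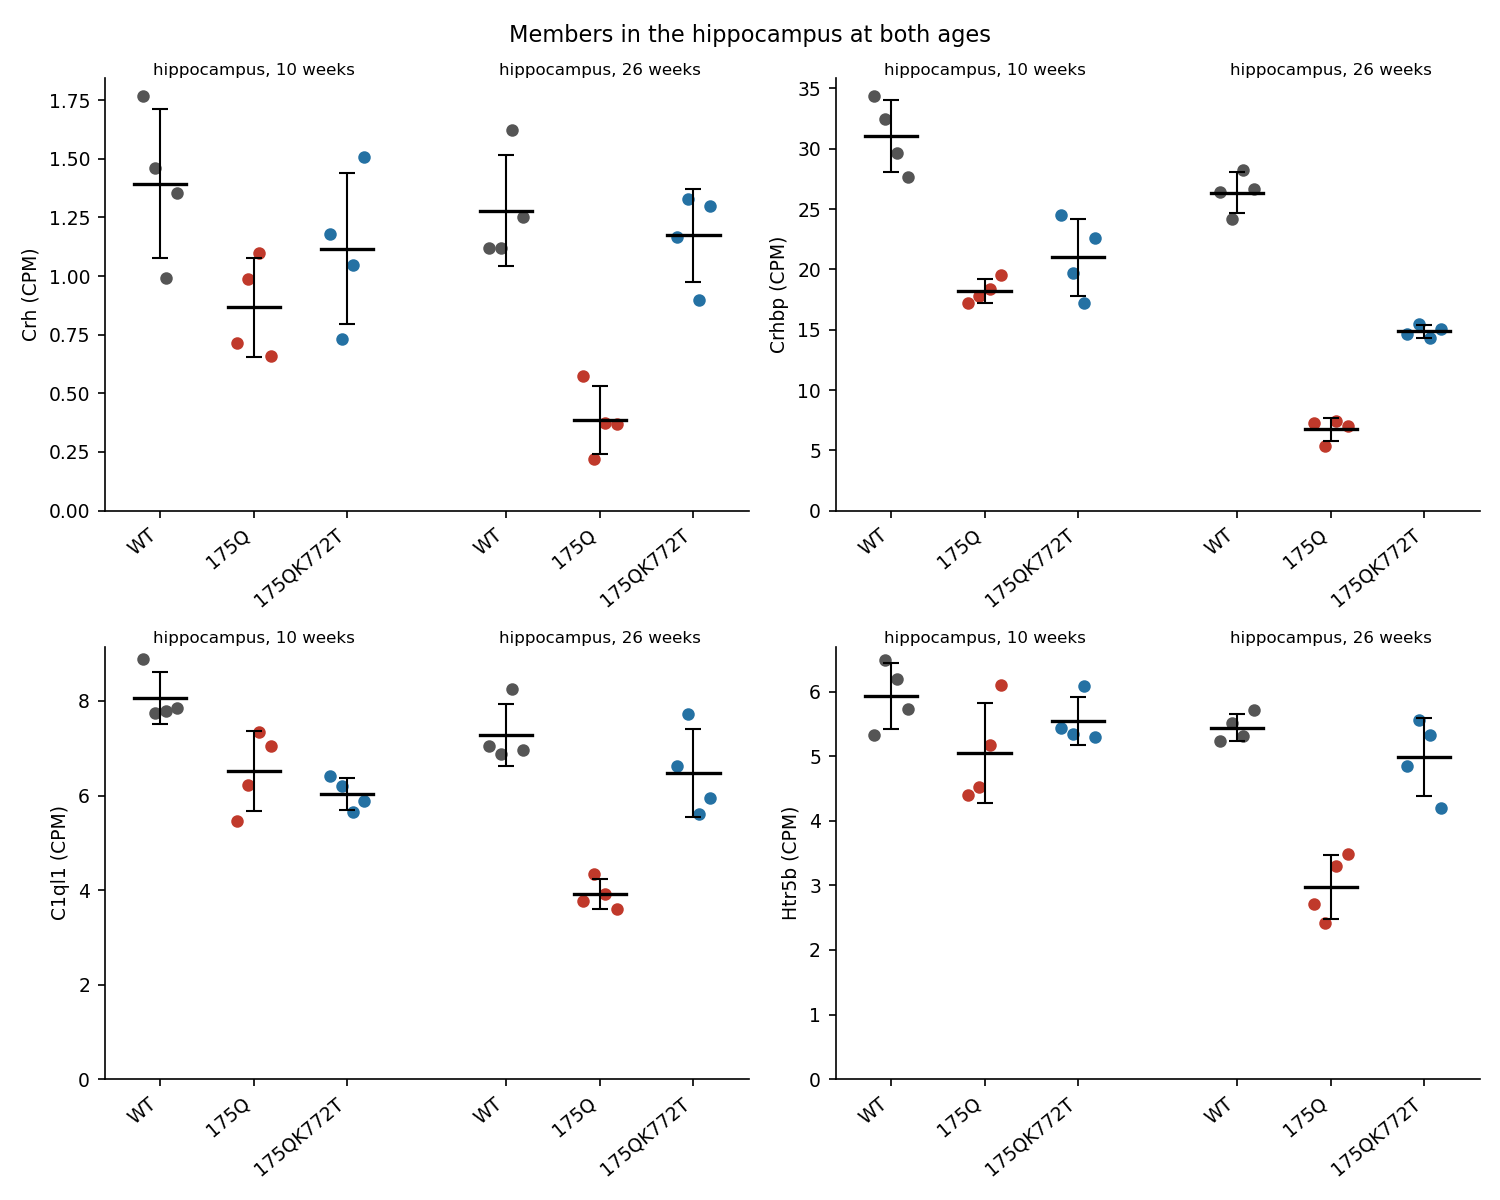
Crh, Crhbp, C1ql1 and Htr5b in CPM in hippocampus at 10 and 26 weeks, with 1 point per library (4 per genotype), a line at the mean and bars of 1 SD. At 26 weeks the 175Q libraries lie below every WT and every 175QK772T library for all 4 genes.

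Crh, C1ql1 and Htr5b also fell in 175Q hippocampus at 26 weeks, and for none of them was 175QK772T called against WT. Hippocampus does not contain the olive, so these levels are not read as climbing fibre transcripts. Crh stood at 1.12, 1.12, 1.62 and 1.25 CPM in WT, 0.575, 0.220, 0.373 and 0.371 in 175Q and 1.16, 1.33, 0.898 and 1.3 in 175QK772T. C1ql1 stood at 7.04, 6.87, 8.26 and 6.96, at 3.77, 4.34, 3.92 and 3.60, and at 6.62, 7.73, 5.61 and 5.95. Htr5b stood at 5.23, 5.51, 5.32 and 5.71, at 2.72, 2.42, 3.30 and 3.48, and at 4.84, 5.56, 5.33 and 4.2. For each the 175Q libraries lay below both other groups, and 175QK772T overlapped WT. The changes in 175Q were -1.70 ± 0.27 for Crh (edgeR adjusted p = 0.000153), -0.90 ± 0.12 for C1ql1 (edgeR adjusted p = 3.04e-05) and -0.87 ± 0.13 for Htr5b (edgeR adjusted p = 8.78e-05). In 175QK772T they were -0.11, -0.17 and -0.13, and the differences from 175Q were 1.58 ± 0.27, 0.73 and 0.74 (edgeR adjusted p of 0.00152, 0.00116 and 0.00186). Crhr1 fell by 0.79 in 175Q and by 0.40 in 175QK772T (edgeR adjusted p = 0.023), where it overlapped WT. The 175QK772T call was lost in 5 of 8 fits that left out a library (adjusted p up to 0.091), and that of its difference from 175Q in 6 of 8 (up to 0.117). Of 7 members, 5 were called in 175Q (40.8% of all genes), 2 in 175QK772T (19%) and 5 between the mutants (15.7%), against 2 (19.6%), 2 (10.8%) and 0 (0.0332%) at 10 weeks. At 10 weeks the second call in each mutant was C1ql1 (-0.31 and -0.40), lost in 6 of 8 and 4 of 8 fits that left out a library (adjusted p up to 0.136 and 0.117), which left 1. Between the mutants at 10 weeks DESeq2 also called 0, and 0 were below an unadjusted p of 0.05.

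Crhbp is made in the forebrain mostly by inhibitory neurons, and markers of forebrain interneurons moved with it. Of 9 such markers, 7 fell in 175Q hippocampus at 10 weeks and 9 at 26 weeks, with medians of -0.41 and -0.95, and 6 and 5 fell in 175QK772T. Their sum in hippocampus at 26 weeks was 572 to 656 CPM in WT, 289 to 343 in 175Q and 440 to 476 in 175QK772T. In cortex at 10 weeks 9 of 9 fell in 175Q and 7 in 175QK772T, with sums of 815 to 912, 509 to 578 and 562 to 615 CPM. Their part in the Crhbp results was not tested.

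In striatum 4 members fell in 175Q at 10 weeks and 5 at 26 weeks. At 10 weeks these were Htr5b (-1.16 ± 0.23, edgeR adjusted p = 0.00156), Crhbp (-1.15 ± 0.22), C1ql1 (-0.34, adjusted p = 0.0388) and Crhr1 (-0.42, adjusted p = 0.0447). The C1ql1 and Crhr1 groups overlapped WT, and their calls were lost in 5 and 6 of 8 fits that left out a library (adjusted p up to 0.12 and 0.147). These were the 4 of 7 members called, beside 32.7% of all genes called, and 0 members were called with edgeR in 175QK772T (19% of all genes) or between the mutants (0.6%). DESeq2 called 1 in each, C1ql1 and Crhbp, and 3 and 2 were below an unadjusted p of 0.05. At 26 weeks Htr5b stood at 0.800, 0.996, 0.626 and 1.07 CPM in WT, 0.107, 0.127, 0.0285 and 0.204 in 175Q, which is 1 to 9 counts per library, and 0.636, 0.441, 0.244 and 0.187 in 175QK772T. The 175Q libraries lay below WT, and 175QK772T overlapped both. Htr5b (-2.84 ± 0.48), Crhbp (-1.56 ± 0.43), Crhr2 (-1.29 ± 0.35), Crhr1 (-0.83) and C1ql1 (-0.67) fell in 175Q, the 5 of 7 members called beside 45.4% of all genes called, and edgeR called 0 in 175QK772T (23.4%), where Htr5b alone was below an unadjusted p of 0.05 and was called by DESeq2. Crhr1, Crhr2 and C1ql1 were higher in 175QK772T than in 175Q (0.84, 1.31 and 0.41, edgeR adjusted p = 0.0301, 0.0301 and 0.0486), beside 13.6% of all genes. These calls were lost in 6, 6 and 8 of 8 fits that left out a library, with an adjusted p of up to 0.0853, 0.0949 and 0.127.

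**Figure D5:**
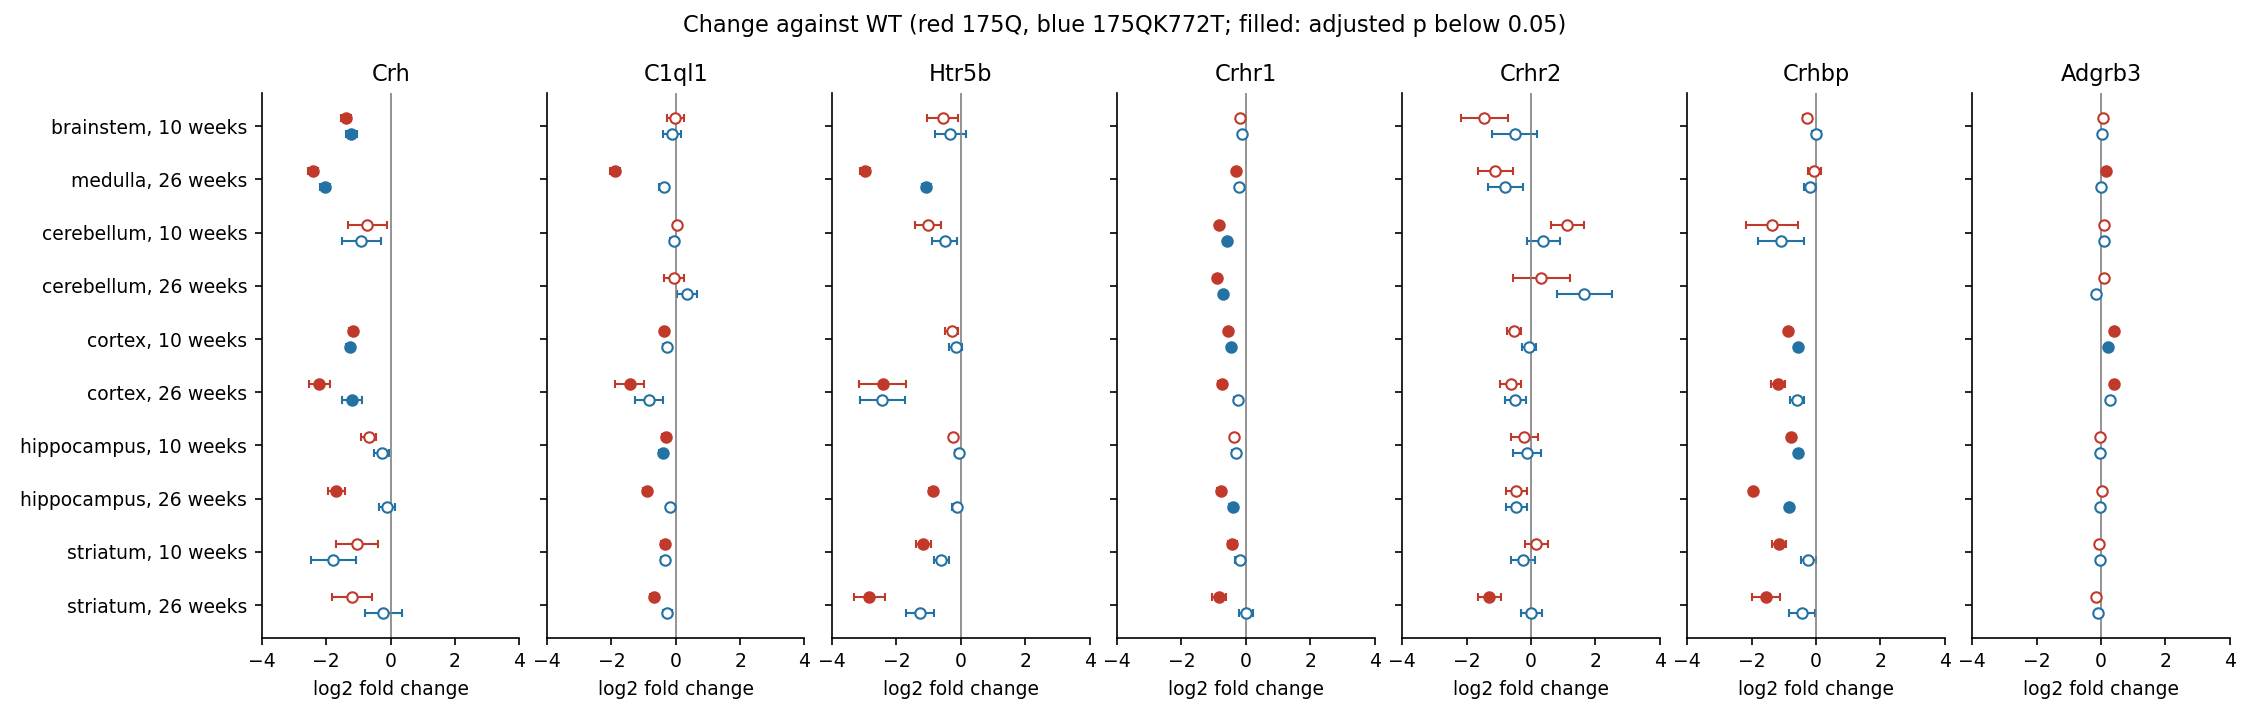
Log2 fold changes against WT ± SE for the 7 genes in each region and age, in red for 175Q and blue for 175QK772T, filled where the edgeR adjusted p is below 0.05. Crh, C1ql1 and Htr5b each have their lowest 175Q value in medulla, at -2.41, -1.88 and -2.98, while Crhr1 is below 0 and called in both mutants in cerebellum at both ages. At 26 weeks the 175Q changes of Htr5b in striatum and Crh in cortex were not shown to differ from those in medulla. The differences were 0.14 and 0.29 (edgeR adjusted p = 0.957 and 0.869). Cortex values at 26 weeks include the doubted library of WT replicate 1. Without that mouse the Crh difference was 0.80 (edgeR adjusted p = 0.508). Without that library the 175Q changes of C1ql1 and Htr5b in cortex were -0.64 and -1.26.

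Whether a change differed between regions was tested against brainstem or medulla with the mouse as a block, 112 tests over members, regions, ages and mutants, of which 7 were called, all for 175Q. The Crhr1 change was more negative in cerebellum than in brainstem at 10 weeks by 0.68 on the log2 scale (edgeR adjusted p = 0.00332), a comparison in which 4.09% of all genes were called. The Adgrb3 change was higher in cortex than in brainstem by 0.32 (edgeR adjusted p = 0.000136; 17.2% of genes). At 26 weeks the Crhr1 difference between cerebellum and medulla in 175Q was -0.59 and was not called (edgeR adjusted p = 0.31). The Htr5b change at 26 weeks was less negative in hippocampus than in medulla by 2.09 (edgeR adjusted p = 0.0112, 3.72% of genes), and lost without 175Q replicate 3 (0.0573). In striatum the Htr5b change differed from that in medulla by 0.14 and was not called (edgeR adjusted p = 0.957). The C1ql1 change was less negative in cerebellum than in medulla by 1.90 (edgeR adjusted p = 0.0078; 0.917% of genes), lost without 175Q replicate 4 (0.0852), the library of high mitochondrial share. The Crhbp change was more negative in hippocampus than in medulla by 1.99 (edgeR adjusted p = 0.0172), lost without WT replicate 2, WT replicate 4 or 175Q replicate 2 (adjusted p up to 0.118). In 175Q the share of all genes called was 7.7% and 20% for hippocampus and striatum against brainstem, and 5.61% and 13.7% for cortex and striatum against medulla, where C1ql1 (1.21) and Crhbp (-1.53) differed in striatum. In 175QK772T edgeR called 0 of 56 such differences, with 11 below an unadjusted p of 0.05, where the shares of all genes called in cerebellum, cortex, hippocampus and striatum were 0.942%, 10.3%, 3.63% and 12.4% against brainstem and 0.156%, 1.02%, 0.899% and 5.69% against medulla. For Crh 0 of 16 such differences were called by edgeR with all mice, and 4 were below an unadjusted p of 0.05, so its falls in medulla, cortex and hippocampus were not shown to differ in size. Without WT replicate 1 of 26 weeks, the mouse of the doubted cortex, 11 differences were called, with the C1ql1 and Htr5b changes less negative in cortex than in medulla by 1.34 and 1.70 (edgeR adjusted p = 0.00186 and 0.00607), and that of C1ql1 in hippocampus by 1.04 (0.0272). The share of all genes called was then 7.46% for cortex and 3.9% for hippocampus. Another of the 11, of Crh in cerebellum, rests on cerebellar libraries with few counts and is not read here.

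Whether a change differed between 10 and 26 weeks was tested in cerebellum, cortex, hippocampus and striatum, 56 tests of which 4 were called, again all for 175Q. Beside Crhbp these were hippocampal C1ql1 (-0.60 ± 0.15, edgeR adjusted p = 0.0133) and Htr5b (-0.64 ± 0.17, edgeR adjusted p = 0.0209), where 9.92% of all genes were called, and striatal Htr5b (-1.69 ± 0.50, edgeR adjusted p = 0.0379; 8.09%). The hippocampal Htr5b difference was lost without 175Q replicate 1 or 2 of 26 weeks (adjusted p up to 0.0596), and the striatal one in 11 of 24 fits that left out a mouse (adjusted p up to 0.0866). Without the cortex of WT replicate 1, Crhbp in cortex was also called (-0.53 ± 0.13, edgeR adjusted p = 0.00767), in a fit that called 9.46% of all genes. The other shares of all genes called were 0.0332% and 1.86% for 175Q in cerebellum and cortex, and 0%, 0.0554%, 0.0734% and 0.209% for 175QK772T in cerebellum, cortex, hippocampus and striatum, where edgeR and DESeq2 called 0 of 28 member tests and 2 were below an unadjusted p of 0.05. Crhr1 in cerebellum, at -0.84 and -0.89 in 175Q, was not among the age differences called.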

How the data were processed

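Poly(A) RNA libraries were sequenced as read pairs. Per the submitters' processing notes the authors used bcl2fastq 2.20.0, Trimmomatic 0.33, HISAT2 2.1.0 and featureCounts of Subread 1.6.2 on GRCm38. The files deposited hold whole-number counts per gene, neither scaled nor logged. Per the file headers, 10-week counts took pairs aligned at both ends on the reverse strand. Strand and quality settings at 26 weeks are not given in the sources used here, so overlapping and antisense genes are uncertain there. Libraries described as 154Q or 154QKT at 26 weeks were grouped by their genotype label.

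Each region and age (12 libraries) was fitted alone in R 4.3.3 with edgeR 4.0.16 (filterByExpr, TMM, quasi-likelihood test, genotype and sex) and limma 3.58.1; p-values were adjusted over all genes tested. Age and region differences were fitted as interactions, the latter with mouse as a block. Alternatives were DESeq2 1.42.0, its size factors, no filter, no sex term, a replicate block, and each library left out. The fit was tested on simulated data. CPM use TMM-scaled totals, and intervals are 2 SE. The members and gene lists were chosen with earlier results of these data known. Genes named beyond the members were list genes that passed the test, up to 4 most alike per transcript, and some chosen after their values were seen; some genes are not reported here.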

Additional observations from a re-analysis of the deposited data

Results flagged for a closer look

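In 25 of 201 groups of 4 libraries 1 library stood further from the other 3 than Dixon's 95% limit. That limit gives about 1 in 20 groups only for independent, normally spread values. These groups share libraries and mice, and some hold few counts, so no excess over chance is read. The cortex of WT replicate 1 at 26 weeks was high for Crh (15.4 CPM, others 4.42 to 5.57), C1ql1 (21.2, others 3.31 to 4.77), Htr5b (9.25, others 0.631 to 1.3) and Crhr2 (2.14, others 0.773 to 0.918), and the same library held hindbrain genes. In cerebellum of 175Q replicate 4 at 26 weeks, C1ql1 was high (4.65, others 1.77 to 2.12) and Adgrb3 low (111, others 131 to 133). Htr5b was low in brainstem of 175Q replicate 1 (1.40, others 3.88 to 4.17). Crhr2 stood apart in 8 groups in all. Beside cortex these were medulla of 175QK772T replicate 2 (3.48), hippocampus at 10 weeks of WT replicate 2 (4.72), 175Q replicate 2 (4.64) and 175QK772T replicate 3 (4.30), and striatum of 175Q replicate 4 at 10 weeks (3.91) and of 175Q replicate 2 (0.676) and WT replicate 2 (0.996) at 26 weeks.

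For C1ql1, 175Q replicate 1 was low in cortex at 10 weeks (4.02), WT replicate 1 high in hippocampus at 10 weeks (8.89), WT replicate 3 high in hippocampus at 26 weeks (8.26) and WT replicate 3 low in striatum at 10 weeks (6.07). Crh was high in cortex of WT replicate 1 at 10 weeks (7.95) and in striatum of 175Q replicate 2 at 10 weeks (2.63). Crhbp was high in cerebellum of WT replicate 1 at 10 weeks (1.3) and low in striatum of 175Q replicate 2 at 26 weeks (1.54). Crhr1 was low in hippocampus of 175Q replicate 4 (8.24) and high in striatum of WT replicate 3 (21.3) at 26 weeks, and Adgrb3 was low in striatum of WT replicate 4 at 10 weeks (110). Their causes were not tested.

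In 11 cases the 175Q change of a member differed between ages or regions by a test of the difference itself. Between 26 and 10 weeks the log2 difference was -1.20 for Crhbp, -0.60 for C1ql1 and -0.64 for Htr5b in hippocampus and -1.69 for Htr5b in striatum. At 10 weeks it was -0.68 for Crhr1 between cerebellum and brainstem and 0.32 for Adgrb3 between cortex and brainstem. At 26 weeks, against medulla, it was 1.90 for C1ql1 in cerebellum, -1.99 for Crhbp and 2.09 for Htr5b in hippocampus, and 1.21 for C1ql1 and -1.53 for Crhbp in striatum. The last 2 were lost in 5 and 8 of 12 fits that left out a mouse.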

How the results depend on the processing

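Of 60 calls among 201 tests of members, DESeq2 and DESeq2's size factors in edgeR each left 60, the fit without a sex term 57, the fit without a filter on low counts 58, and the fit with the replicate block 50, and 0 reversed direction. These alternatives added 15, 1, 3, 34 and 1 calls. Leaving out each library in turn kept 399 of 480 calls. Without the filter the members called were 3 in 175Q brainstem (1 with it), 1 between mutants in brainstem (0), 4 in 175QK772T medulla (2), 3 in 175Q cerebellum at 10 weeks (1), 2 between mutants there (0), 2 in 175QK772T cerebellum at 26 weeks (1) and 12 age differences (4). DESeq2 called 1 member between mutants in cerebellum at 10 weeks. With the replicate block, 0 members were called in 175QK772T brainstem (Crh, adjusted p = 0.0653). Replicate numbers pair no mice in the labels: same-numbered libraries correlated at -0.565 to 0.397, and in 0 of 30 comparisons did every pair exceed 0.1. Without 1 library the members called ranged from 0 to 1 in 175QK772T brainstem and in 175QK772T cerebellum at 26 weeks, from 1 to 2 in 175Q cerebellum at 10 weeks (2 without WT replicate 1, which adds Crhr2, or 175Q replicate 3, which adds Htr5b), and from 35 to 47 in the forebrain (45 with all). Age differences called ranged from 2 (without 175Q replicate 2 of 26 weeks) to 5, and region differences from 4 (without 175Q replicate 2 or WT replicate 2 of 26 weeks) to 11 (without WT replicate 1 of either age). Counts over all genes were less stable: 7 genes in 175QK772T brainstem became 73 with DESeq2, 372 without the filter and 0 with the block, 619 in 175Q brainstem became 1333, 1744 and 314, 412 in 175QK772T medulla became 935 with DESeq2 and 1351 without the filter, and 576 in 175Q cerebellum at 26 weeks became 1314 with DESeq2 and 2608 without both libraries of high mitochondrial share. Between mutants, 12 in brainstem became 100, 439 and 2, and 244 in cerebellum at 10 weeks 572, 942 and 143, while 826 in 175QK772T cerebellum at 10 weeks became 1370 with DESeq2 and 1418 without the filter. The cause was not tested. The region of highest WT level was the same for 14 of 14 pairs of gene and age under TPM and common scaling. Depth limits Crh, Crhbp and Htr5b in cerebellum and Htr5b in striatum.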

Other observations

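Pou4f1, one of the olivary genes that fell in 175Q medulla, went the other way in the forebrain, and it was chosen for this description after its values were seen. In cortex at 10 weeks it stood at 0.0245, 0.152, 0.0118 and 0.0480 CPM in WT, 4.99, 5.86, 5.13 and 5.10 in 175Q and 2.76, 3.88, 3.21 and 2.70 in 175QK772T. The 3 groups did not overlap, and Pou4f1 rose in 175Q and in 175QK772T (edgeR adjusted p = 6.95e-11 and 1.06e-09). In hippocampus at 10 weeks WT held 1 to 5 counts of Pou4f1 per library, against 2.08 to 3.22 CPM in 175Q and 0.971 to 1.55 in 175QK772T. In striatum at 26 weeks it reached 12.6, 9.82, 11.8 and 12.2 CPM in 175Q and 5.75, 7.76, 6.00 and 5.35 in 175QK772T, with 0 to 11 counts per library in WT. Fold changes of a gene with so few WT counts depend on the prior count and are left out here.

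In cortex at 26 weeks Pou4f1 stood at 14.2, 0.0574, 0.0407 and 0.0218 CPM in WT, 15.9, 17.8, 17.2 and 18.1 in 175Q and 11.4, 12.1, 9.22 and 10.8 in 175QK772T. With the cortex of WT replicate 1, the library that held hindbrain genes, the rise in 175Q was not called (edgeR adjusted p = 0.0847), and without it the adjusted p was 2.28e-15. At 26 weeks Pou4f1 was lower in 175QK772T than in 175Q in hippocampus (-1.07 ± 0.24, edgeR adjusted p = 0.00834), the reverse of its order in medulla, where 175QK772T was higher than 175Q by 1.07 ± 0.11. Whether the medulla and forebrain changes of Pou4f1 differ was not tested.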
